A study of Rattus norvegicus with 16 samples.

Results

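The genes described here are 36 genes of the cell cycle and of proliferation, chosen by name for their textbook role and grouped by that role. They were read on 16 two-colour arrays of liver RNA, from male pups of the Sprague-Dawley rat strain on postnatal day 21. Of the 36 genes, 32 had a probe that could be named, and 28 of these were bright enough to be tested, among 12072 genes or identifiers tested in all. The pups belonged to 4 groups of 4 arrays each. In group C the dams had received corn oil and the pups stayed with their own dams. In group CC the pups of such dams were raised from birth by other corn oil dams. In group M the dams had received 1.0 mg/kg/day of organochlorine pesticides, polychlorinated biphenyls (PCBs) and methyl mercury together, dissolved in corn oil (called the mixture here), from gestation day 0 to postnatal day 20, and the pups stayed with their own dams. In group MM the pups of such dams were raised by other mixture dams. Each array held the pooled RNA of 2 pups, and since the labels do not give the litter of a pool, p-values measure the spread between pools. Arrays are called by their group and the replicate number in the labels, from C 9 to C 12, CC 1 to CC 4, M 5 to M 8 and MM 1 to MM 4.

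On every array the liver RNA was labelled with Cy5 and a universal rat reference RNA, made from 14 rat cell lines, with Cy3. Values are log2(Cy5/Cy3) after loess normalisation within each array, unless Cy5 or Cy3 is named alone. A value of 0 lies on the array's own trend of ratio with intensity and need not mean equal brightness of liver and reference. Slide 1 held the 8 arrays of C and CC, and slide 2 the 8 of M and MM, so the mixture and the slide cannot be told apart, and the 2 channels are given separately beside each mixture comparison. The median Cy5 intensity was 87 to 102 per array over a local background of 67 to 73, which limits what can be seen of dim genes. Of 10 hepatocyte markers, 10 were above background on all 16 arrays. The highest correlation between arrays was 0.993, and no pair held identical values.

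A dividing cell passes through G1, copies its DNA in S phase and separates the copies in mitosis. D and E cyclins with their kinases lead into S phase by inactivating the retinoblastoma protein, which frees E2F transcription factors. The MCM helicase is loaded onto origins and unwinds them, the PCNA clamp holds the polymerases, and ribonucleotide reductase, thymidylate synthase and thymidine kinase supply the nucleotides. B cyclins with CDK1 drive entry into mitosis, and the spindle checkpoint and the anaphase-promoting complex (APC/C) time the exit. In the liver, hepatocytes still divide in the weeks after birth and become largely quiescent in the adult.

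E2F-dependent genes peak in G1 and S phase and carry E2F sites, while genes that peak in G2 and mitosis typically carry a cell cycle genes homology region (CHR) near the start site together with upstream CCAAT boxes. The RefSeq promoter table of the rat build GRCr8, 250 bases before to 50 after each start, held 26 of the 36 genes, of which 20 were tested. The motifs searched on both strands were TTTGAA for the CHR, CCAAT for the CCAAT box, and for the E2F site the letters TTCCCGC, the variant TTGGCGC, the variant TTCGCGC and the variant TTGCCGC. Matches of different motifs overlapped in 2 of the 26 promoters, Mcm7 and Mki67. The CHR was found in 13 of 26 promoters (50%) against 18.3% of all 33469 promoters of this length. The CCAAT box was found in 19 (73.1%) against 37.5%, and an E2F site in 10 (38.5%) against 9.52%. The median GC content was 59% in the 26 promoters and 51.7% in all. The motifs divided by role. Among 16 promoters of G2/M, checkpoint and chromosome genes 12 held a CHR, 13 a CCAAT box and 3 an E2F site. Among 10 promoters of replication, nucleotide and G1/S genes 1 held a CHR, 6 a CCAAT box and 7 an E2F site. Both a CHR and a CCAAT box were found in 11 of the 16 and 0 of the 10, against 7.41% of all promoters. A match of letters is a description and not a binding site.

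Of these promoters 4 are shown, with every match in capitals (as its reverse complement where it lay on the opposite strand). Ccnb2, Birc5 and Kif11 are genes with a mixture call, and Mcm3 stands for the replication genes. Ccnb2 lies at chr8:79981609-79981908 on the minus strand, Birc5 at chr10:103571896-103572195 on the plus strand, Kif11 at chr1:244536617-244536916 on the plus strand and Mcm3 at chr9:30733697-30733996 on the minus strand.
Ccnb2: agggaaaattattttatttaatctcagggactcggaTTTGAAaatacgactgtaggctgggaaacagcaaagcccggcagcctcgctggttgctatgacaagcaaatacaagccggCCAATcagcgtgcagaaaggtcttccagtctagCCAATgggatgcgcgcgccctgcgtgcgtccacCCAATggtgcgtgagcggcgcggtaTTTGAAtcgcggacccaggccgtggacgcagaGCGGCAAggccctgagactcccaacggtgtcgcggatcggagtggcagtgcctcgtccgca
Birc5: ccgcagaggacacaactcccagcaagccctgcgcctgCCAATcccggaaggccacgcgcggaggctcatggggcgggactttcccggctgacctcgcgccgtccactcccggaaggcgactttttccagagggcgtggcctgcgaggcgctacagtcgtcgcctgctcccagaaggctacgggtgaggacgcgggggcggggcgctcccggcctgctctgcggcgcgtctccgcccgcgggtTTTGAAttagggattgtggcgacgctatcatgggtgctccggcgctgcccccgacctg
Kif11: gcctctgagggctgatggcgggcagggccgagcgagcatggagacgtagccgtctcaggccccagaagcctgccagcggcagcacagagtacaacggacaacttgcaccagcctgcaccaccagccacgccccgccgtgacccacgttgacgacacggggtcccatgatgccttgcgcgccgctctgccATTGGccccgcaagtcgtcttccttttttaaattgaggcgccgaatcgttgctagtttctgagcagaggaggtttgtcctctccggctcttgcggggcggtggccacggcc
Mcm3: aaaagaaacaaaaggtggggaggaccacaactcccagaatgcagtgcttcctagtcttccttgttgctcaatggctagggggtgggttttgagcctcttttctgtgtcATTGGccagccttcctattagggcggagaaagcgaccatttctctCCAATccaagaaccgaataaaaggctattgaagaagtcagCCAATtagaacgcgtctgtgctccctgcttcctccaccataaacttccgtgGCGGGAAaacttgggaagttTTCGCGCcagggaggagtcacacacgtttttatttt
The Ccnb2 promoter held 2 CHR matches, 3 CCAAT boxes and 1 E2F match on the opposite strand, and the Birc5 promoter 1 CHR match close to the start and 1 CCAAT box. The Kif11 promoter held 1 CCAAT box, on the opposite strand, and no CHR. The Mcm3 promoter held 3 CCAAT boxes and 2 E2F matches. The Bub1 promoter, also of a gene with a mixture call, held none of the motifs, and Racgap1 was not among the promoters matched.

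The 28 tested genes covered all roles. They were 3 of 3 G1/S regulators, 5 of 7 replication licensing and clamp genes, 3 of 4 nucleotide supply genes, 8 of 9 G2/M cyclins and kinases, 3 of 4 checkpoint and APC/C genes, and 6 of 9 chromosome, spindle and cytokinesis genes. No named probe was found for Mcm5, Bub1b, Top2a and Mki67. Aurkb, Mcm6 and Rrm1 were not well above background on any of the 16 arrays, and Tpx2 on only 5, so these 4 were not tested. Of the tested genes, 25 were above background on all 16 arrays, Tyms on 15, Ccnb2 on 14 and Cenpf on 5.

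Cell-cycle transcripts were low in the liver pools relative to the reference RNA of dividing cell lines. Below and above the reference here mean a normalised ratio below and above 0, read without dye swap. In group C, 27 of 28 genes lay below the reference, against 43.6% of all genes tested, and 23 lay more than 2-fold below it, against 12.1%. The median over the 28 genes was -1.35, against 0.14 over all genes. The lowest was Rrm2, the small subunit of ribonucleotide reductase, at -2.95 ± 0.32 (SD, n = 4), which is 7.73-fold below the reference. A second Rrm2 probe gave -1.17, so the size of that gap depended on the probe, but the second was dim, above background on 9 of 16 arrays. Cdk1, the mitotic kinase, was at -2.38 ± 0.21, Plk1, a kinase of mitotic entry, at -2.31 ± 0.09, and Mcm3 at -2.18 ± 0.22. Ccnd1, cyclin D1, was at -2.09 ± 0.20. Tyms, thymidylate synthase, was the only gene above the reference, at 0.10 ± 0.08. Since this is bulk tissue, fewer dividing cells and less RNA per dividing cell cannot be told apart. Across the 4 groups the SD within a group had a median of 0.16 and was highest for Mcm3 in group CC, at 0.46.

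**Figure D1:**
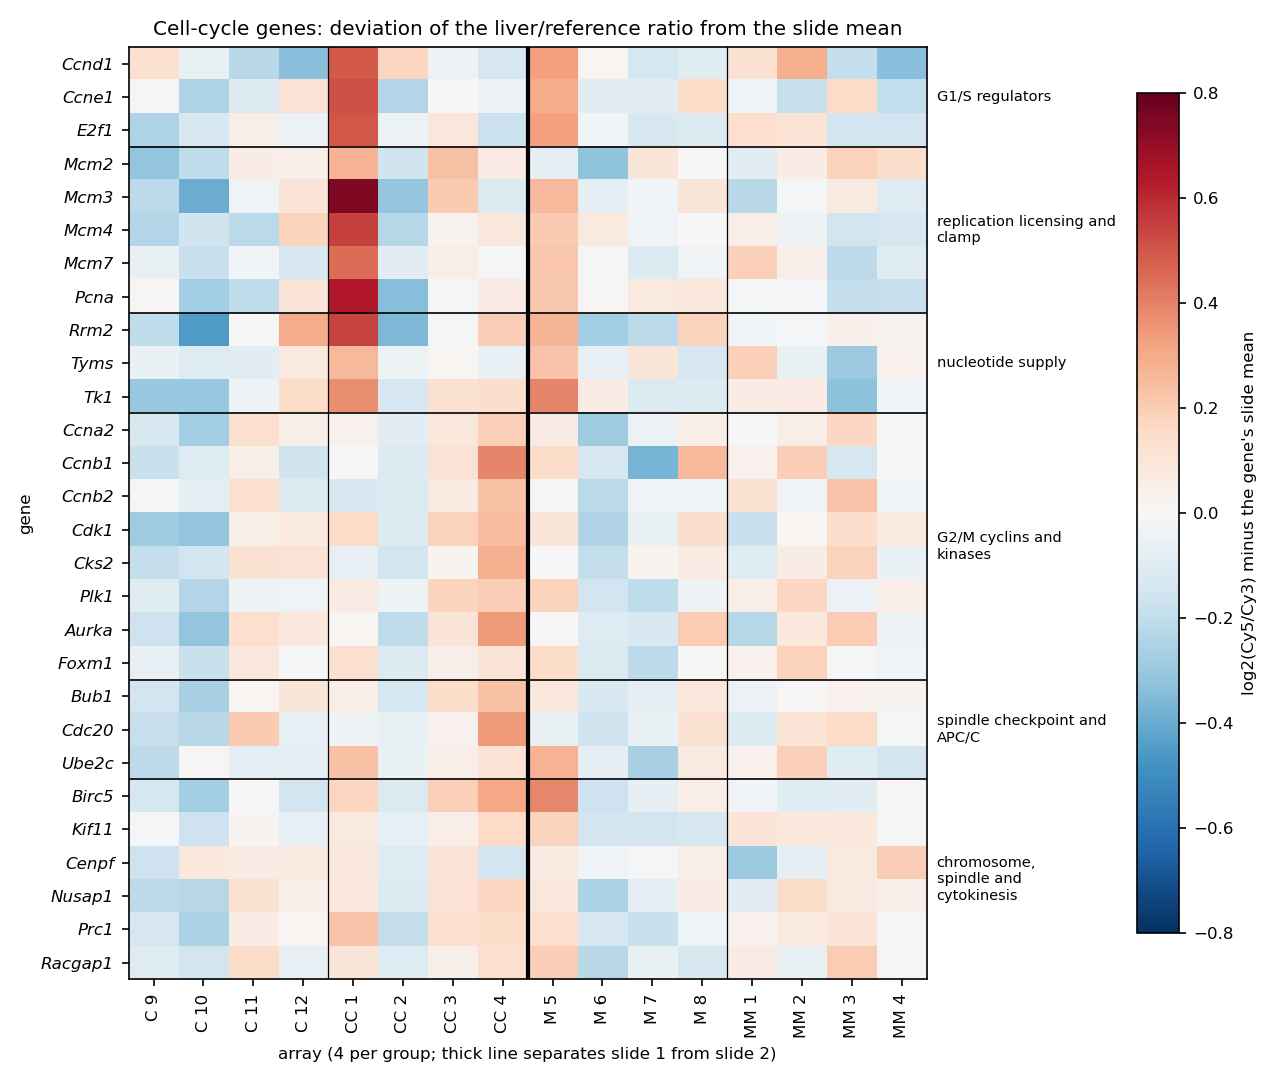
Deviation of log2(Cy5/Cy3) from the gene's mean over the 8 arrays of its slide, for 28 genes in rows, grouped by role, and 16 arrays in columns, with the thick line between slides 1 and 2. In CC 1 the median deviation of the replication genes was 0.55 and that of the G2/M genes 0.03, while C 10 had a median of -0.21 over all 28 genes.

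The first mixture comparison, M against C, asks how exposure through gestation and nursing relates to liver transcripts in pups that stayed with their dams. In limma's fit, 3 cell-cycle genes rose and 1 fell at an adjusted p below 0.05, where adjustment is Benjamini-Hochberg over all genes tested. The 4 calls among 28 genes compare with 20.3% of all genes, of which 8.31% were higher and 12% lower. Birc5, Ccnb2 and Racgap1 rose and Kif11 fell. These were also the 4 genes whose groups did not overlap, which was so for 25.1% of all genes.

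Birc5 encodes survivin, a subunit of the chromosomal passenger complex. Its value was -1.23, -1.36, -1.09 and -1.24 in C 9 to C 12, and -0.41, -0.96, -0.87 and -0.74 in M 5 to M 8. Every M pool lay above every C pool, with M 5 highest. The difference was 0.49 ± 0.11 (SE), with a 95% interval of 0.25 to 0.72 and a limma adjusted p of 0.0057.

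Ccnb2 encodes cyclin B2, a partner of CDK1. It stood at -1.31, -1.36, -1.16 and -1.40 in the C pools and at -0.88, -1.08, -0.90 and -0.89 in the M pools, with M 6 lowest of the 4. The groups did not overlap, and the difference was 0.37 ± 0.092 (adjusted p 0.0094). Racgap1 encodes a GTPase-activating protein of the central spindle needed for cytokinesis. Its values were -2.13, -2.17, -1.88 and -2.09 in C and -1.46, -1.88, -1.71 and -1.79 in M. The highest C pool and the lowest M pool lay next to each other, and the difference was 0.36 ± 0.096 (adjusted p 0.015).

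Kif11 encodes the kinesin that pushes spindle poles apart, and it moved the other way. Its values were -1.04, -1.19, -1.0 and -1.09 in C and -1.26, -1.59, -1.59 and -1.56 in M. All M pools were lower, with M 5 closest to the C pools. Kif11 differed by -0.42 ± 0.080 (adjusted p 0.0018).

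The channels of these 4 genes were then read apart. In Cy5 alone, which carries the liver RNA, 0 of 28 genes were called between M and C, against 2.23% of all genes. In Cy3 alone, which carries the reference RNA, 22 of 28 were called, 6 higher and 16 lower on slide 2, against 66.2% of all genes. For Kif11, Cy5 was 7.05, 6.86, 6.96 and 6.99 in C and 7.08, 6.93, 6.93 and 6.96 in M, a difference of 0.01 (95% interval -0.13 to 0.15). Cy3 at the same probe was 9.60, 9.62, 9.59 and 9.64 on the C arrays and 10.03, 10.06, 10.05 and 10.08 on the M arrays. The liver channel of Kif11 overlapped between the groups and the reference channel did not. For Ccnb2, Cy5 differed by 0.02 (-0.11 to 0.15) and Cy3 by -0.43, and for Racgap1 Cy5 differed by 0.06 (-0.11 to 0.22) and Cy3 by -0.32. Birc5 had the largest Cy5 difference of the 4, at 0.17 (-0.07 to 0.41, adjusted p 0.51), beside a Cy3 difference of -0.34. In all 4 called genes Cy3 was called in the direction opposite to the ratio. The same held for 2077 of the 2454 genes called in the ratio among all genes tested.

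**Figure D2:**
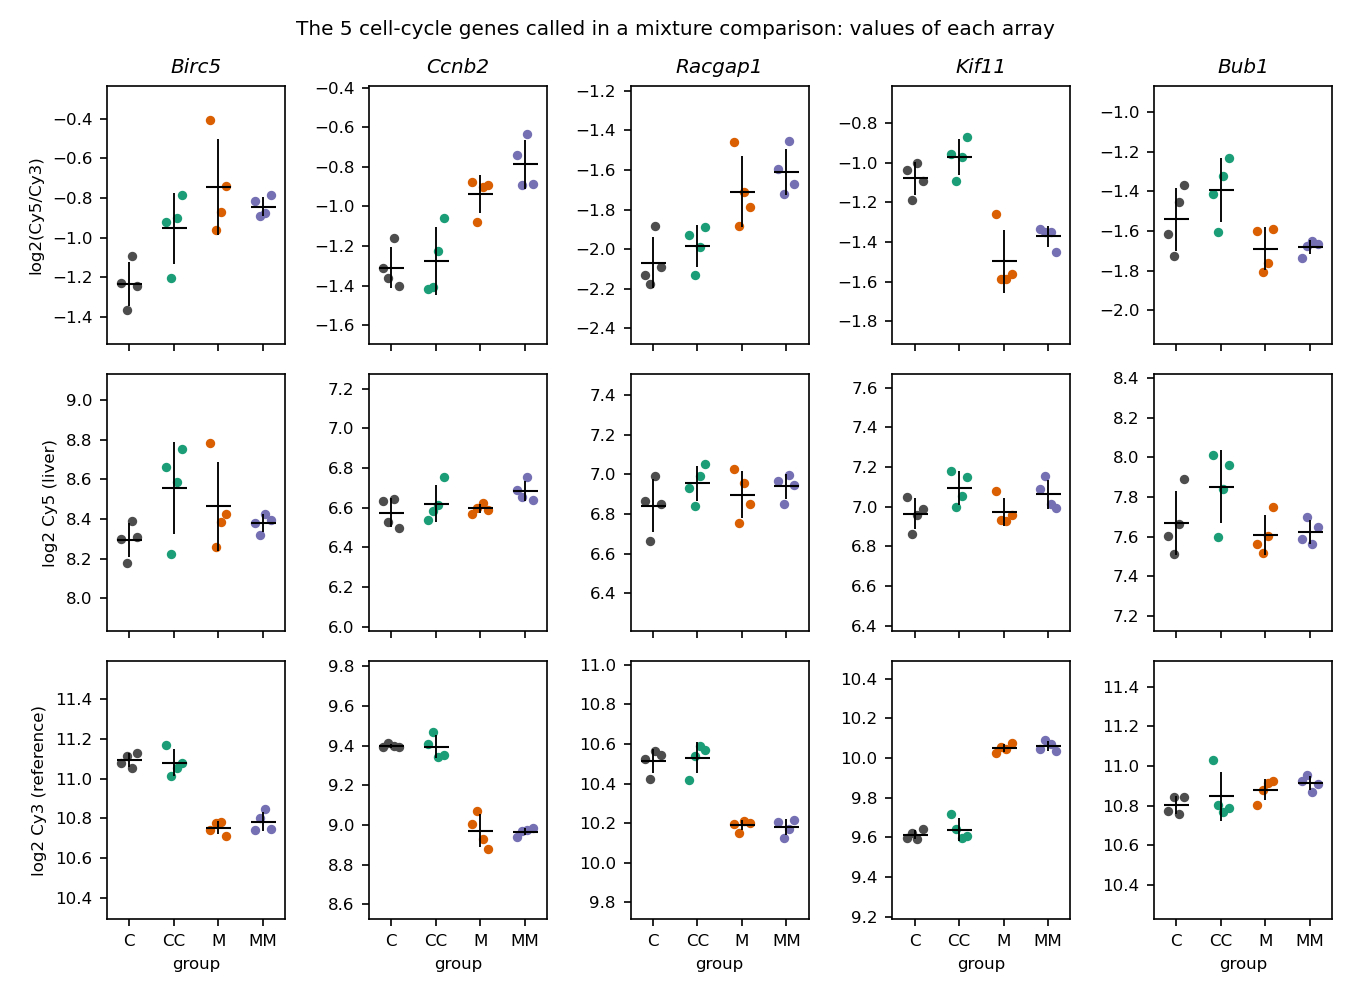
Ratio, Cy5 alone and Cy3 alone for the 5 genes called in a mixture comparison, with 1 point per array and the group mean ± SD as lines. The ratios of Ccnb2, Racgap1 and Kif11 separate M from C and MM from CC, the Cy5 values of these genes overlap, and their Cy3 values separate by slide.

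Over the 28 genes the M minus C differences had a median of 0.16, against -0.05 over all genes, and 22 of 28 were above 0, against 41.4% of all genes. In Cy5 alone the median was 0.07 with 23 of 28 above 0, against 5698 of 12072 genes. Each slide has 2 rows of arrays, and each group has 2 arrays in each row. Within row 1 the median difference was 0.24 and within row 2 it was 0.00. The row 1 comparison holds M 5, the highest array of slide 2 for 15 of 28 genes, and C 9 and C 10, which lay lowest on slide 1 for 8 and 17. Without M 5 the median was 0.09. Birc5 differed by 0.61 in row 1 and 0.36 in row 2, Racgap1 by 0.48 and 0.24, Ccnb2 by 0.36 and 0.39, and Kif11 by -0.31 and -0.53, so the direction of the 4 called genes was the same in both rows. With 2 arrays a group, adjusted p was below the threshold only for Kif11 in row 2.

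By role, the G1/S genes differed by 0.21 to 0.24 between M and C without a call. Ccne1, cyclin E1, differed by 0.21 (95% interval -0.09 to 0.51), and E2f1, which switches on S phase genes, by 0.24 (-0.05 to 0.52). Of the replication genes Mcm2, Mcm3 and Mcm4 each differed by 0.33, with adjusted p of 0.055, 0.20 and 0.095, while Mcm7 and Pcna differed by -0.03 and -0.05. Mcm2 passed the threshold with array row as a covariate (adjusted p 0.014), with the scanner log ratio (0.023) and with no background correction (0.045), as well as without C 11 (0.047) or M 6 (0.027). Mcm4 passed it when C 12 was left out (0.041). By channel, Mcm2 had Cy5 values of 7.37 to 7.66 in C and 7.34 to 7.77 in M, which overlapped. Its Cy3 values were 10.84 to 10.92 on the C arrays and 10.60 to 10.67 on the M arrays, which did not. A second Mcm3 probe gave a difference of 0.15.

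Among nucleotide genes Rrm2 differed by 0.41 (0.03 to 0.79, adjusted p 0.12). Its second probe gave -0.02, but was dim, above background on 2 C arrays and 1 M array. At the first probe Cy5 was 9.59 to 10.28 in C and 9.65 to 10.30 in M, and Cy3 was 14.38 to 14.47 and 13.84 to 13.93. Tk1, thymidine kinase, differed by 0.35 (0.05 to 0.64, adjusted p 0.089, and 0.047 without C 12), all of it in row 1, at 0.69 against 0.00 in row 2. The fit with row within slide as a covariate gives the row 1 difference, which for Tk1 was 0.58 (adjusted p 0.011). Tyms differed by 0.03. Of the G2/M genes other than Ccnb2, Ccna2 differed by 0.20, Cdk1 by 0.13, Aurka by 0.09, Foxm1, a transcription factor of G2/M genes, by 0.03, Plk1 by 0.01, Ccnb1 by -0.04 and Cks2, a CDK-binding protein, by -0.13. Of the checkpoint genes Ube2c, the ubiquitin-conjugating enzyme of the APC/C, differed by 0.18, Cdc20, its activator, by 0.06, and Bub1 by -0.15. Prc1, which bundles midzone microtubules, differed by 0.20 and Nusap1 by 0.03. None of these passed the test.

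For 3 of 28 genes the Cy5 values of M and C did not overlap although the test made no call, against 10.7% of all genes. E2f1 had 7.26, 7.29, 7.46 and 7.37 in C and 7.95, 7.57, 7.54 and 7.51 in M. Pcna had 8.82, 8.52, 8.53 and 8.88 in C and 9.18, 8.97, 9.07 and 9.08 in M. Pcna thus differed by 0.39 in Cy5 (adjusted p 0.23) but by -0.05 in the ratio, with Cy3 at its probe 0.38 higher on slide 2. The third was Cenpf, a kinetochore protein, whose Cy5 was above background on 2 C arrays and on no M array. Cenpf passed the filter on dim probes only through group CC, where 3 arrays were above background, so nothing is read from its Cy5 difference of -0.21. Its ratio differed by 0.09 the other way and was not called, and a second Cenpf probe, itself too dim to be kept, gave -0.30.

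**Figure D3:**
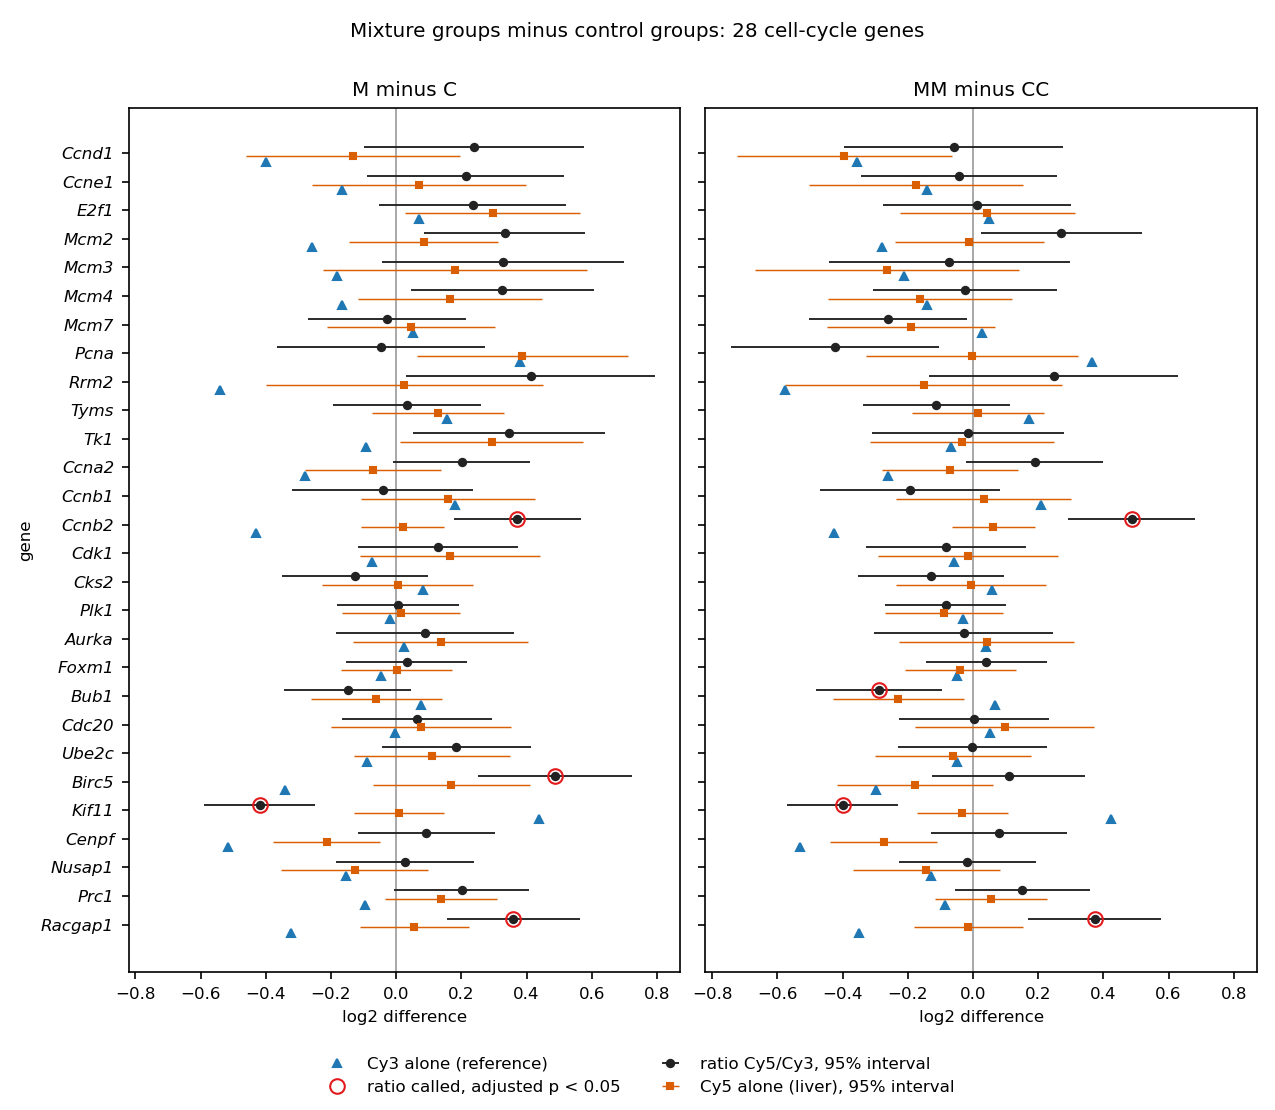
Differences M minus C and MM minus CC for 28 genes, as the ratio (black, 95% interval), Cy5 alone (orange, 95% interval) and Cy3 alone (blue triangles), with red rings around called ratios. All Cy5 intervals of the ringed genes Ccnb2, Racgap1 and Kif11 include 0, and their Cy3 differences lie opposite to the ratio, between -0.43 and 0.44.

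The second mixture comparison, MM against CC, asks the same in cross-fostered pups. Ccnb2 and Racgap1 rose, Kif11 and Bub1 fell, and the other 24 genes were not called. The 4 calls compare with 20.2% of all genes, 7.89% higher and 12.3% lower, and these were the 4 genes whose groups did not overlap, against 22.1%. Both mixture comparisons called Ccnb2, Racgap1 and Kif11, each with an unchanged sign, which was so for 13.2% of all genes. The 2 comparisons share no arrays but share the same pair of slides.

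In Ccnb2 the value was -1.42, -1.41, -1.22 and -1.06 in CC 1 to CC 4 and -0.74, -0.89, -0.64 and -0.88 in MM 1 to MM 4. The lowest MM pool lay above the highest CC pool, and the difference was 0.49 ± 0.092 (adjusted p 0.0017). Racgap1 was at -1.93, -2.13, -1.99 and -1.89 in CC and at -1.60, -1.72, -1.46 and -1.67 in MM, a difference of 0.37 ± 0.096 (adjusted p 0.012). Kif11 was at -0.95, -1.09, -0.97 and -0.87 in CC and at -1.33, -1.35, -1.35 and -1.45 in MM, a difference of -0.40 ± 0.080 (adjusted p 0.0027). The 3 genes again separated completely, and the MM pools of Kif11 lay close together.

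Read by channel, Ccnb2 differed by 0.06 in Cy5 and -0.43 in Cy3, Racgap1 by -0.01 and -0.35, and Kif11 by -0.03 and 0.42. Of 28 genes 0 were called in Cy5 alone, against 2.58%, and 19 in Cy3, against 66.2%. Cy3 was called opposite to the ratio in these 3 of the 4 called genes, and in 2066 of the 2438 genes called among all genes tested. Of the 28 genes 0 had Cy5 values that did not overlap, against 8.71%.

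Bub1, a kinase of the spindle checkpoint, was the exception among the called genes, since its Cy3 difference of 0.07 was not called (adjusted p 0.23). Its ratio was -1.41, -1.60, -1.32 and -1.23 in CC and -1.73, -1.67, -1.65 and -1.66 in MM, with the lowest CC pool just above the highest MM pool. It differed by -0.29 ± 0.092 (adjusted p 0.036), and by -0.23 (95% interval -0.43 to -0.03, adjusted p 0.26) in Cy5. The call was lost when any array but CC 2 was left out, with an adjusted p of 0.11 without CC 4, and with the replicate number as a block (adjusted p 0.058). In M against C Bub1 differed by -0.15 (adjusted p 0.28).

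Birc5, called between M and C, differed by 0.11 between MM and CC (95% interval -0.13 to 0.34, adjusted p 0.53). It was at -0.92, -1.21, -0.90 and -0.79 in CC and at -0.82, -0.89, -0.88 and -0.79 in MM, and the MM pools lay within the CC range. Over the 28 genes the median MM minus CC difference was -0.02, against -0.06 over all genes, with 11 of 28 above 0, against 39.3% of all genes. The median was 0.06 without CC 1, 0.05 within row 1 and -0.08 within row 2, so its sign depended on the arrays used. For the row 1 difference fitted with row within slide as a covariate it was 0.07, which is no separate check of row 1. It was -0.11 with the scanner software's log ratio and -0.23 with median centring in place of loess. Those settings made 7 and 11 calls among the 28 genes, 1 up and 6 down, and 3 up and 8 down. Over all 12072 genes they made 4305 and 4868 calls.

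Pcna stood lowest in this comparison without a call, at -0.42 ± 0.15 (adjusted p 0.059, and 0.012 without CC 2), with a Cy5 difference of 0.00 and a Cy3 difference of 0.36. Mcm7 differed by -0.26 (-0.50 to -0.02, adjusted p 0.12) and Mcm2 by 0.27 (0.02 to 0.52, adjusted p 0.11), so 2 helicase subunits pointed opposite ways in the ratio. With array row as a covariate Mcm2 was called here too (adjusted p 0.038). Each mixture comparison then had 5 of 28 genes called, the 4 above and Mcm2. Calls over all 12072 genes rose as well with this covariate, from 2454 to 3284 for the first mixture comparison. For the second they rose from 2438 to 3306. Pcna and Mcm7 passed with the scanner log ratio (adjusted p 0.035 and 0.037) and with median centring (0.0075 and 0.0066). In Cy5 alone all 5 replication genes differed by 0 or less, down to -0.26 for Mcm3, whose interval was -0.67 to 0.14. Ccnd1 differed by -0.39 in Cy5 (-0.72 to -0.07, adjusted p 0.23) and by -0.06 in the ratio. Cenpf, which passed the filter through CC alone and was above background on no MM array, differed by 0.08 in the ratio, or by -1.01 with the scanner log ratio.

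CC 1 and CC 2 differed from the other arrays in transcripts of other tissues, and all results that use group CC rest on them. The summed Cy5 of skeletal muscle markers was 15144 in CC 1 and 12972 in CC 2, against 851 to 1005 in the other 14 arrays. Exocrine pancreas markers summed to 14640 in CC 2, 5376 in CC 1, 4263 in MM 1 and 2340 in M 6, against 829 to 1172 elsewhere. CC 1 also had the highest sums of stellate and fibroblast markers, 21300 against 9556 to 16321, of T and NK cell markers, 1474 against 935 to 1074, of cholangiocyte markers, 857 against 519 to 630, of adipose markers, 1134 against 541 to 977, and of Kupffer cell and macrophage markers, 16403 against 11061 to 15339. Of 9 T and NK cell markers 6 were above background on no array, among them Cd3e and Cd4. Hepatocyte markers summed to between 1132750 and 1241537 and erythroid markers to between 434949 and 577351 on all 16 arrays, while the erythroid factors Klf1 and Gata1 were above background on none. Of 11 Kupffer cell and macrophage markers tested, 4 fell between CC and MM in the ratio and 0 changed in Cy5 alone, and 0 fell between C and M. The part of these cells in the results was not tested. Without CC 1 and CC 2, a setting chosen after seeing the data, 4 genes were called between MM and CC. Of these 3 were shared with the calls above, Racgap1 fell out (0.33, adjusted p 0.088) and Pcna came in (-0.36, adjusted p 0.044).

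Cross-fostering without the mixture, CC against C, lay within slide 1. No cell-cycle gene was called, as with 0% of all genes, and 2 of 28 had an unadjusted limma p under 0.05, against 2.77% of all genes. These 2 were Birc5, at 0.28 (95% interval 0.04 to 0.51, adjusted p 1), and Plk1, at 0.20 (0.01 to 0.39, adjusted p 1). The signs ran one way. The difference was above 0 for 27 of 28 genes, against 54.2% of all genes, with a median of 0.17 against 0.01. Cenpf, at -0.03, was the exception. In Cy5 alone the median was 0.16 with 27 of 28 above 0, against 46.2% of all genes, and the Cy3 median was 0.00. All 28 genes were read in the same pools, so counts of signs, here and in the other comparisons, are not 28 separate observations. No gene's groups were without overlap, against 2.21% of all genes. For 27 of 28 genes the 95% interval held no change beyond 1.5-fold in either direction, against 94.2% of all genes, and the exception was Mcm3 at 0.27 (-0.10 to 0.64).

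Values differed by role. The medians of CC minus C were 0.21 for replication, 0.19 for G1/S, 0.18 for nucleotide, 0.15 for checkpoint, 0.12 for G2/M and 0.12 for chromosome genes. The sign count depended little on single arrays, and the size did. The median over 28 genes was 0.10 without CC 1, 0.09 without C 10, 0.23 without CC 2 and 0.18 without both CC 1 and CC 2. Within row 1 it was 0.20 and within row 2 0.09, with 23 of 28 above 0. Of 107 other genes of the cell cycle 85 were above 0 (median 0.08), against 54.2% of all genes. The lists differed. Above 0 were 39 of 42 other mitosis genes (median 0.10) and 25 of 29 other replication genes (median 0.13). The counts were 7 of 14 CDK inhibitors and p53 arrest genes (median 0.01) and 7 of 12 other G1 cyclins and CDKs (median 0.02). Pocket protein, DREAM and E2F genes had 7 of 10 (median 0.04).

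**Figure D4:**
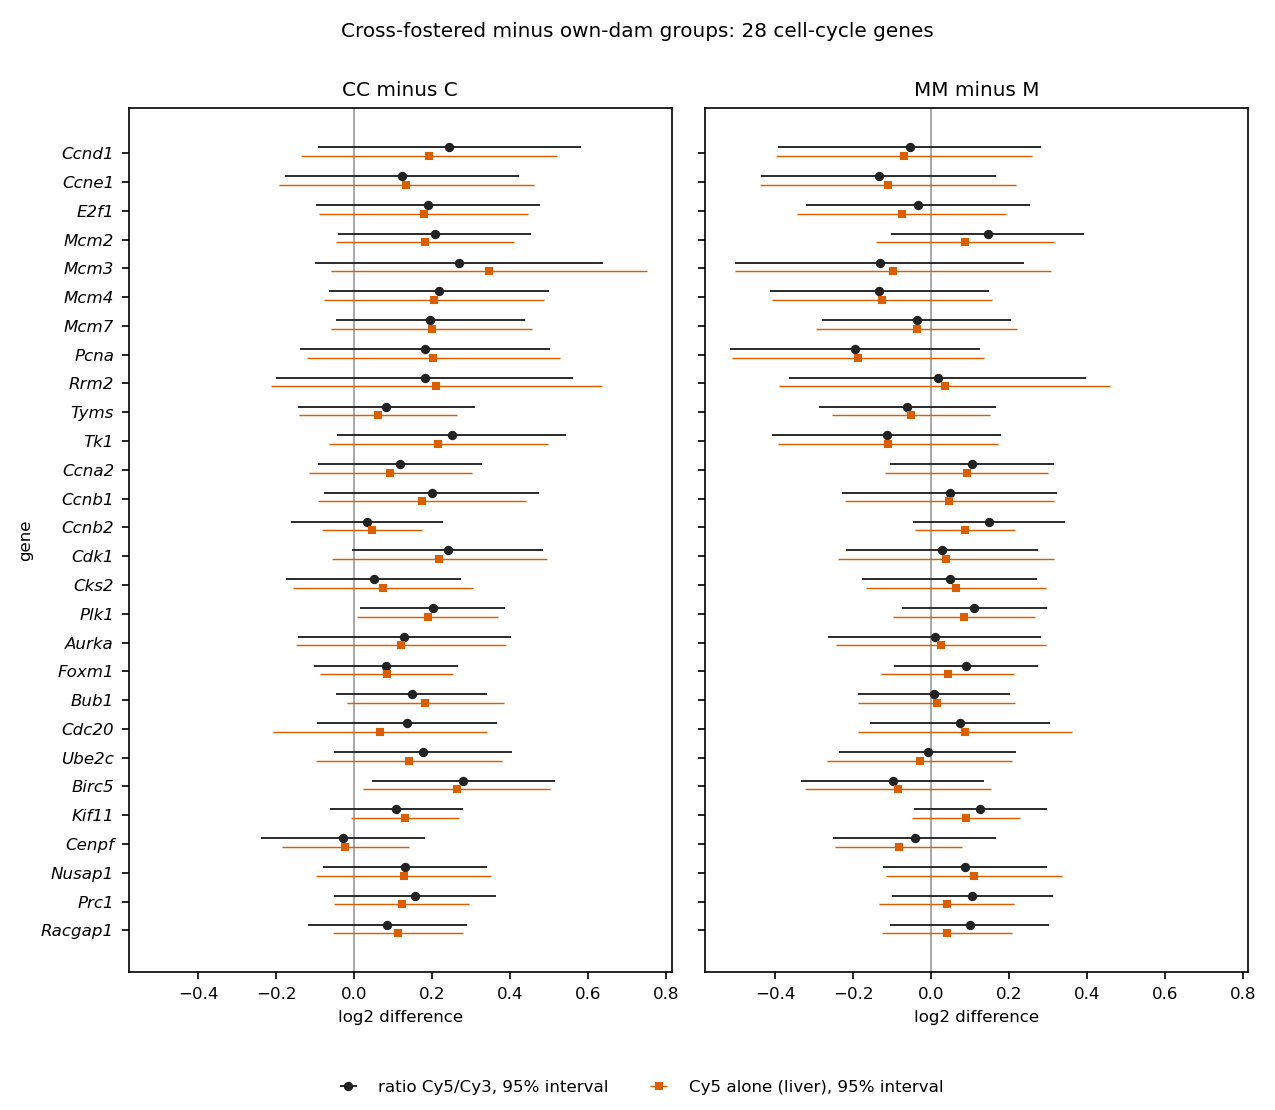
Differences CC minus C and MM minus M for 28 genes, as the ratio (black) and Cy5 alone (orange), each with its 95% interval. In CC minus C 27 of 28 ratios lie right of 0 with a median of 0.17, and in MM minus M 16 of 28 do with a median of 0.01.

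The arrays behind these medians were not alike in which roles they raised. In CC 1 the genes of S phase stood above their slide mean, by a median of 0.50 for G1/S, 0.55 for replication and 0.37 for nucleotide genes, while G2/M genes were at 0.03 and checkpoint genes at 0.05. Pcna was -0.57 in CC 1 and -1.55, -1.21 and -1.14 in the other CC pools, and Mcm3 was -1.29 in CC 1 and -2.35, -1.84 and -2.16 in the others. In CC 4 the G2/M genes stood highest, at 0.24, with checkpoint genes at 0.23, chromosome genes at 0.15, nucleotide genes at 0.14, replication genes at 0.07 and G1/S genes at -0.13. CC 1 was the highest array of slide 1 for 14 genes and CC 4 for 12. On slide 2, M 5 stood above the mean by 0.33 for G1/S, 0.22 for replication, 0.27 for nucleotide and 0.15 for chromosome genes, and by 0.08 for G2/M genes.

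Other arrays were low throughout. C 10 lay at a median of -0.21 over 28 genes, C 9 at -0.15, M 6 at -0.13 and CC 2 at -0.11, and in CC 2 only 1 of 28 genes was above its slide mean. The Cy3 medians of every role stayed between -0.06 and 0.06 on every array, so these patterns were in the liver channel. CC 1, high in S phase genes, and CC 2, low in all roles, were the same 2 pools with high muscle markers, and the part of other tissues in either array was not tested.

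Cross-fostering under the mixture, MM against M, lay within slide 2 and had no call, as with 0% of all genes. Of 28 genes 0 had an unadjusted limma p under 0.05, against 2.29%. The median difference was 0.01 with 16 of 28 above 0, against 51.2%, and the 95% interval stayed inside 1.5-fold for 28 of 28 genes, against 94.6%. All 8 G2/M genes were above 0, up to 0.15 for Ccnb2 (-0.05 to 0.34), and all 3 G1/S genes were below, down to -0.13 for Ccne1 (-0.44 to 0.17). Pcna was the 1 gene whose groups did not overlap, against 1.28% of all genes, at -0.20 (-0.52 to 0.13).

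Whether the mixture difference depended on rearing was tested as the interaction, MM minus CC less M minus C. None of 28 genes was called by limma, as with 0% of all genes, and 1 had an unadjusted p under 0.05, against 2.97%. That gene was Birc5, at -0.38 ± 0.16 (unadjusted p 0.028, adjusted p 0.999). The call of Birc5 in M against C alone is therefore not shown to differ from MM against CC. The interaction was above 0 for 4 of 28 genes, against 47.6% of all genes, with a median of -0.14. It was -0.40 for Mcm3 (-0.92 to 0.12), -0.38 for Pcna (-0.83 to 0.08), -0.36 for Tk1 (-0.78 to 0.05) and -0.35 for Mcm4 (-0.75 to 0.05), and 0.12 for Ccnb2. The interaction uses the same 4 groups as the comparisons above and is no separate evidence.

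The row of an array on its slide was balanced over the groups, so its size was measured too. With a term for row, 6 of 28 genes were called in the ratio, against 21.9% of all genes, 5 higher in row 2, against 10.5%, and 1 lower, against 11.4%. Aurka, a spindle pole kinase, was 0.23 higher in row 2, Cdk1 0.21, Mcm2 0.21, Cks2 0.19 and Cdc20 0.18, and Ccnd1 was lower, at -0.37 ± 0.063 (adjusted p 0.0023). In Cy5 alone 7 of 28 were called, the same 6 and Nusap1, against 22.7%. In Cy3 alone Ccnd1 differed by 0.01 between rows, so the row difference lay in the liver channel. With the scanner software's own log ratio 0 of 28 were called between rows. Within rows 1 and 2, Ccnd1 differed by 0.23 and 0.25 between M and C, and by -0.03 and -0.09 between MM and CC.

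The rest of the pathway was read in 182 other cell-cycle genes, of which 107 were tested. Between M and C 10 rose and 14 fell, and between MM and CC 7 rose and 17 fell. Of all genes tested, 8.31% rose and 12% fell in the first comparison and 7.89% rose and 12.3% fell in the second, so these counts were near the background. The CDK inhibitors and p53 arrest genes had 14 of 16 tested, with 1 up and 5 down in M against C and 1 up and 4 down in MM against CC. The other mitosis genes had 42 of 78 tested, with 7 up and 3 down, then 5 up and 5 down. The other replication genes had 29 of 50 tested, with 1 up and 3 down, then 0 up and 5 down. The other G1 cyclins and CDKs had 12 of 19 tested, with 1 up and 2 down in each comparison, and the pocket protein, DREAM and E2F genes 10 of 19, with 0 up and 1 down in each. The CDK inhibitor median was -0.16 and -0.21 in the ratio and 0.04 and 0.05 in Cy5.

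The called pathway genes with the largest differences are given by channel, and in those of this paragraph Cy5 was not called and differed less than Cy3. Gadd45a, a stress-induced growth arrest gene, rose by 0.71 ± 0.16 in M and 0.81 ± 0.16 in MM, beside Cy5 differences of 0.17 and 0.30 and Cy3 differences of -0.53 and -0.51. Cdk4, the partner of D cyclins, rose by 0.59 in M, with Cy5 at 0.18 and Cy3 at -0.40, and Cdc25b, a phosphatase that activates CDK1, by 0.49, with Cy5 at 0.09. Lmnb1, lamin B1, rose by 0.39 and 0.42, with Cy5 at 0.14 and 0.22. Cenpn, a centromere protein, rose by 0.51 in MM with Cy5 at -0.03. Cdkn1a, a CDK inhibitor induced by p53, fell by 0.47 in M, with Cy5 at 0.04 and Cy3 at 0.54. Cdkn1b, another CDK inhibitor, fell by 0.51 in MM, with Cy5 at 0.07. Slbp, which binds histone mRNA, fell by 0.50 in M and by 0.61 in MM, with Cy5 at 0.00 and -0.12. Gmnn, the licensing inhibitor geminin, and Rfc4, a subunit of the clamp loader, fell by 0.51 and 0.50 in MM, with Cy5 at -0.08 and -0.13. Ccnl1, cyclin L1, fell by 0.51 in M, with Cy5 at -0.11.

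In the liver channel 1 of the 107 genes was called between M and C, which was Zwint, against 2.23% of all genes. Between MM and CC it was also 1 of 107, Cdkn1c, against 2.58%. Zwint, a kinetochore scaffold, was -1.94, -1.83, -1.86 and -1.67 in C and -1.53, -1.46, -1.30 and -1.37 in M. It rose by 0.41 ± 0.077 (adjusted p 0.0015) in the ratio and by 0.39 in Cy5 (adjusted p 0.017), beside -0.08 in Cy3 (adjusted p 0.027). In MM Zwint rose by 0.25, with Cy5 at 0.27 (adjusted p 0.094). Cdkn1c, a CDK inhibitor and imprinted growth restrictor, was 3.03, 3.24, 3.08 and 2.99 in CC and 2.23, 2.44, 1.98 and 2.45 in MM. It fell by 0.81 ± 0.12 (adjusted p 0.00036) in the ratio and by 0.42 in Cy5 (adjusted p 0.026), beside 0.21 in Cy3 (adjusted p 0.00021). In M it fell by 0.66, with Cy5 at -0.38 (adjusted p 0.0503) and Cy3 at 0.21 (adjusted p 0.00016). Btg1, an antiproliferative factor, was 2.35, 2.45, 1.96 and 2.28 in C and 1.81, 1.55, 1.74 and 1.41 in M. It fell by 0.63, with Cy5 at -0.46 (adjusted p 0.0501) and Cy3 at 0.10 (adjusted p 0.032). Ccnf, cyclin F, rose by 0.38 in MM with Cy5 at 0.36 (adjusted p 0.065) and Cy3 at 0.00.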

How the data were processed

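The pooled liver RNA (Cy5) and a universal rat reference (Cy3) were read on 16 two-colour arrays without dye swap. The deposited scanner files, made with Agilent Feature Extraction 11.0.1.1 per the file headers, hold linear intensity per spot (median spot and background signals) and a log10 ratio of red over green. The authors' deposited value matrix holds log2 ratios, which correlated with the ratios used here at 0.996 to 0.997 with a slope of 0.997 to 1.01. Its normalisation is not given in the sources used here.

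Intensities were background-corrected in limma 3.58.1 (R 4.3.3) by normexp with offset 50 and normalised by loess within each array, with control spots at weight 0. Outlier spots were left out and spots of a probe averaged. Probes were kept where 3 or more of the 4 arrays of some group had Cy5 well above background, which left 13262 of 30367 probes. The brightest kept probe stood for its gene. Differences between groups were fitted by lmFit and eBayes over all 4 groups, two-sided, with Benjamini-Hochberg adjustment over 12072 genes or identifiers and a threshold of 0.05. Cy5 and Cy3 alone are quantile-normalised log2 intensities fitted the same way. Promoters were searched in Python 3.11.15. The fit was tested on simulated data.

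All 36 genes and every list, the called pathway genes included, were chosen with earlier results of these data known. In the text, 28 genes are described in full. Of the other cell-cycle genes, up to 5 with the largest called differences in each direction are named for each mixture comparison, where the 4 arrays of each group also lay apart. Alternatives covered background, normalisation, filters, probes, array row, the replicate block and each array left out. The correlations of same-numbered CC and MM pools' deviations were 0.34, 0.053, 0.18 and 0.10, so the numbers were not taken as pairs.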

Additional observations from a re-analysis of the deposited data

Results flagged for a closer look

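A single pool stood far from the other 3 of its group in 8 of 172 groups examined, over 43 genes, while chance alone gives about 1 in 20 groups, and 4 of the 8 were in the 28 cell-cycle genes. In Ccnb2, M 6 was at -1.08 and the others at -0.90 to -0.88. In Kif11, M 5 was at -1.26 and the others at -1.59 to -1.56, and MM 4 was at -1.45 and the others at -1.35 to -1.33. In Cenpf, C 9 was at -0.95 and the others at -0.71 to -0.69. In the other cell-cycle genes, Ccnl1 was at -0.56 in C 9 and -0.60 in the others, and at -0.88 in MM 4 and -1.07 to -1.04 in the others. Cdkn1a was at 1.45 in CC 4 and 1.65 to 1.69 in the others, and Rfc4 was at -0.63 in C 10 and -0.29 to -0.26 in the others. All values are log2(Cy5/Cy3).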

How the results depend on the processing

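The 4 calls between M and C were 0 in Cy5 alone, 0 in row 1, 1 in row 2 and 4 to 6 with 1 array left out. The 4 between MM and CC were 0 in Cy5 alone, 7 with the scanner software's log ratio, 11 with median centring, 1 in row 1 and 3 to 5 with 1 array left out. The 6 between rows were 0 with the scanner log ratio, 1 with median centring, 0 on slide 1 and 1 on slide 2. The median over the 28 genes moved to 0.0047 between M and C in row 2 and to -0.23 between MM and CC with median centring. The sign turned for Cenpf in MM against CC (-1.01) and Mcm2 between rows (-0.0060) with the scanner log ratio, and for Kif11 in M against C (0.0086) and Racgap1 in MM against CC (-0.014) in Cy5 alone, and the cause was not tested. With the replicate number as a block, 3 genes were called between MM and CC, where Bub1 was lost, and not every pool correlated best with its own number. No paired analysis was possible for M and C, which share no numbers. Over all genes, 2454 and 2438 calls became 269 and 312 in Cy5 alone, 4364 and 4305 with the scanner log ratio, 854 and 596 in row 1, and 697 and 1234 in row 2. Those between MM and CC were 4868 with median centring, 1584 with only these groups and 1498 without CC 1 and CC 2. The 2644 between rows were 0 with the scanner log ratio, 1562 with median centring, 0 on slide 1 and 862 on slide 2. Over the values of single genes, 4176 kept their side of the threshold, 58 lost a call with the sign kept and 28 gained one. The other 4, those named above, changed sign. Of these Cenpf was called only in the changed setting (adjusted p 0.022), and Mcm2, Kif11 and Racgap1 only in the main fit. Values that were not called could change sign within the first count, as Pcna did between M and C, from -0.05 to 0.39 in Cy5 alone. Dim Cy5 signals limit what can be seen for Cenpf, Ccnb2 and Tyms, and 4 arrays a group limit precision.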
